A study of Homo sapiens with 30 samples.

Results

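Epithelial junction genes encode the proteins that hold neighbouring epithelial cells together, and 37 of them were followed here in BEAS-2B cells after whole birch pollen or a mock exposure. BEAS-2B is an immortalized human bronchial epithelial cell line. The 37 genes were chosen by name, each through the probes whose gene name in the scanner files was that of the gene, and they had 56 of the 58201 probes of the array design that most samples shared. By the role of their proteins they fell into tight junction membrane proteins, tight junction plaque and polarity proteins, cadherins and nectins, catenins, desmosome proteins and connexins. Total RNA of each sample was measured on a one-colour Agilent array. There were 30 arrays, 3 for each exposure at each of 5 times, which were 10 and 55 min, then 2h25 min and 6h50 min, and last 24 h.

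All cells were grown on permeable inserts in bronchial epithelial medium and were kept at the air-liquid interface, with no medium above them, before exposure. Pollen cells received whole birch pollen, dispersed by pressured air as a dose of 10 mg in a sedimentation chamber. Mock cells stood in the same chamber behind a mesh that let the air through but held back the pollen, so both groups had the same handling. The study's authors believed that the puff of pressured air did not reach the cells. The labels call the mock group air. The model is 1 cell line without other cell types, with 3 arrays in each group. The study's methods describe its exposures as independent repeats made on separate days. The labels do not tie single arrays to those repeats, so the p-values measure the spread between these arrays.

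Tight junctions seal the space between epithelial cells near their apical side. Claudins and occludin span the membrane and set how tight the seal is, and plaque proteins such as ZO-1 tie them to actin. Below them, adherens junctions join cells through cadherins and nectins, whose tails bind catenins. Desmosomes join the keratin filaments of neighbouring cells through desmogleins and desmocollins, with plakophilins, plakoglobin and plakins on the inner face. Connexins form the gap junctions, through which small molecules pass from cell to cell. In airways this set of junctions is the barrier that inhaled particles meet. The paper describes BEAS-2B as lacking cilia and mucus and as having only limited tight junctions.

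A level is given here as the log2 processed signal minus the log2 of the 75th percentile of the same array, taken over the probes that both array designs shared. It has no meaning between genes, since probes differ in brightness, so each gene was compared only with itself. A gene was represented by its brightest tested probe, and values and calls are of that probe unless another is named. Of the 36 genes 17 had 2 or more tested probes. A probe was tested if at least 1 group had it well above background on each of its 3 arrays, which 55 of the 56 junction probes and 36 of the 37 genes were. The exception was JAM3, a junctional adhesion molecule, which was not well above background on any of the 30 arrays and has no level here. TJP3, the plaque protein ZO-3, was well above background on 20 arrays, and the other 35 genes on all 30. A gene was called when limma's moderated test gave a Benjamini-Hochberg adjusted p under 0.05 over the 32099 tested probes together with a change of at least 1.1-fold. For comparison with the junction genes, the share of all 24517 tested genes called in the same comparison is given as the background.

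The arrays lay on 5 slides, read in 5 scan runs, and slide and time were partly bound together. The 6 arrays of 6h50 min had a slide of their own, read in a separate scan, and their 75th percentiles, at 578.4 to 1151 units, lay below most of the 1044 to 2111 of the others. All 10 min arrays lay on another slide with 1 mock array of 55 min. The 24 h arrays shared a slide with 1 mock and 1 pollen array of 2h25 min, and the other 2h25 min arrays shared one with arrays of 55 min. The first pollen array of 55 min was of a different array design and lay alone on its slide. Mock and pollen arrays of 1 time thus lay side by side at every time except for parts of 55 min, whereas 6h50 min against any other time cannot be told apart from slide and scan. Of 18 markers of epithelial identity 16 were well above background on all 30 arrays, among them EPCAM, ESRP1 and GRHL2, and so were 12 of 14 mesenchymal markers, among them VIM and ZEB1. Markers of the labelled epithelial type were thus detected, beside mesenchymal ones. Of 12 markers of other cell types on the array, MS4A1, MUC5B and PECAM1 were not well above background on any array, while CDH5, PTPRC and SFTPC were on all 30. Detection alone therefore did not identify a cell type.

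The first question was whether pollen changed the junction genes. None of the 36 tested genes was called at any of the 5 times. The share of all genes called was 0% at 10 min, 0.00408% at 55 min, 0.0449% at 2h25 min, 0.0408% at 6h50 min and 0.00408% at 24 h, so few genes of any kind were called. The paper, with the same thresholds, reported many more called genes at 6h50 min, some of them related to cell junction. Those junction genes that it named, such as ICAM1, are not among the genes followed here. The reason for the difference in number was not tested. With an unadjusted p under 0.05 there were 0 junction genes at 10 min, 1 at 55 min, 3 at 2h25 min, 3 at 6h50 min and 1 at 24 h. Among all genes the matching share lay between 1.85% at 10 min and 7.15% at 6h50 min. Averaged over the 5 times, again 0 junction genes were called against a background of 0.0122%, and 1 had an unadjusted p under 0.05.

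**Figure D1:**
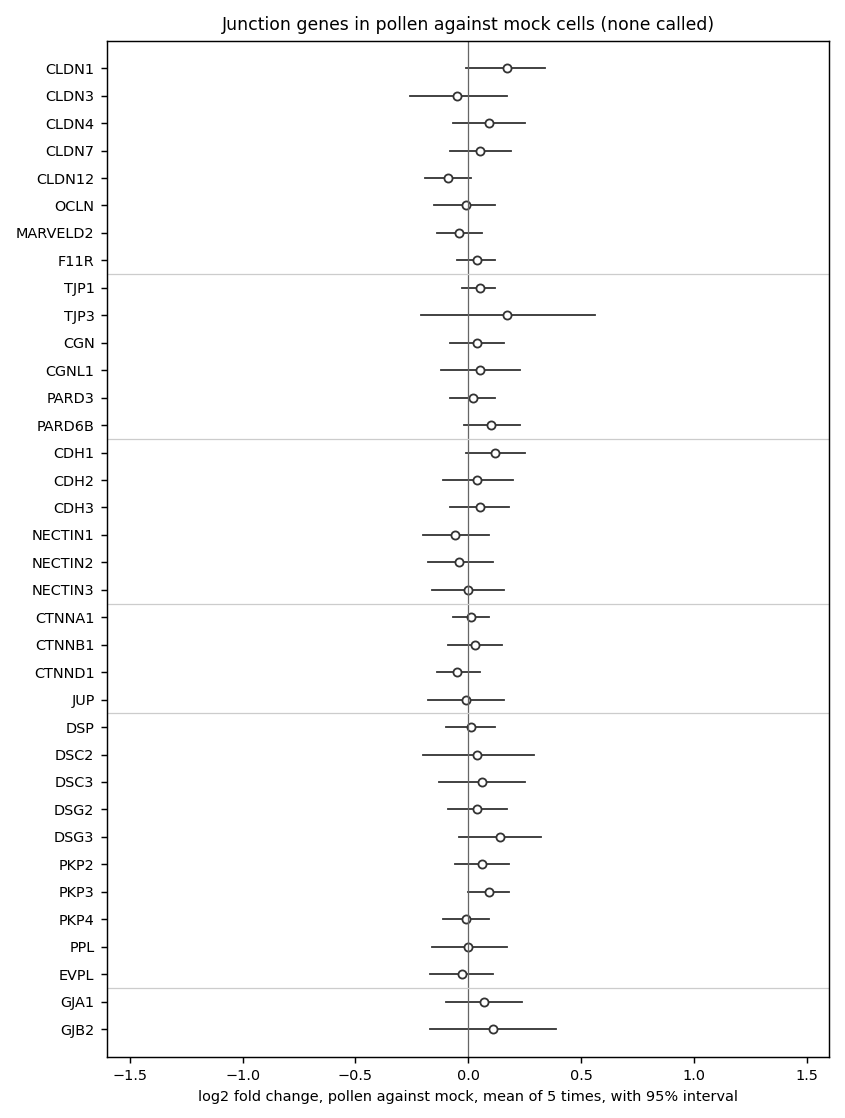
Log2 fold change of pollen against mock cells for the 36 tested junction genes, averaged over the 5 times, on the horizontal axis, with genes on the vertical axis in the order of their roles. Points are estimates over 30 arrays and bars are 95% intervals. All points lie between -0.09 and 0.17, and no gene was called.

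The averaged differences were small and their intervals narrow. They ran from -0.09 for CLDN12, a claudin, to 0.17 for CLDN1 and TJP3, with a median of 0.04 against -0.01 over all genes. The median 95% interval reached 0.14 to either side, and over the 36 genes the bounds lay between -0.26 for CLDN3 and 0.56 for TJP3, whose value includes 6h50 min, where no array of either exposure was well above background. OCLN, which encodes occludin, differed by -0.01 with an interval from -0.15 to 0.12. TJP1, the gene of ZO-1, differed by 0.05, from -0.03 to 0.12. CDH1, the gene of E-cadherin, differed by 0.12, from -0.01 to 0.25, and CDH2, the gene of N-cadherin, by 0.04, from -0.11 to 0.20. DSP, which encodes desmoplakin, differed by 0.01, from -0.10 to 0.12, and GJA1, the gene of connexin 43, by 0.07, from -0.10 to 0.24. The smallest unadjusted p of each role belonged to CLDN1 (interval from -0.01 to 0.34), the polarity gene PARD6B (0.10, from -0.02 to 0.23), CDH1, the p120 catenin gene CTNND1 (-0.05, from -0.14 to 0.05), the plakophilin gene PKP3 (0.09, from 0.00 to 0.18) and GJA1. All of their adjusted p-values were 1 by limma.

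At single times the intervals were wider, with a median of 0.30 to either side at 10 min and 0.31 at 2h25 min. CLDN1, a claudin that seals the tight junction, stood at 0.36, -0.09 and 0.03 in the mock arrays of 2h25 min and at 0.90, 0.58 and 0.44 in the pollen arrays. The arrays did not overlap, and the difference was 0.54 ± 0.19 (SE) with an unadjusted p of 0.00972 and an adjusted p of 1 by limma. PARD6B stood at -1.17, -1.17 and -1.20 in mock and at -0.77, -0.91 and -0.76 in pollen cells of 2h25 min, again without overlap, for a difference of 0.36 ± 0.14 (SE). The other PARD6B probe, well above background on all 30 arrays, differed by 0.05 and was not called. OCLN at 6h50 min stood at -1.56, -1.42 and -1.32 in mock and at -1.68, -2.01 and -1.81 in pollen cells. All 3 pollen arrays lay below the mock arrays, with a difference of -0.40 ± 0.15 (SE), an unadjusted p of 0.0123 and an adjusted p of 0.413 by limma. The second OCLN probe differed by -0.24 in the same comparison and was not called. PKP3 at 24 h stood at 2.62, 2.5 and 2.36 in mock and at 2.87, 2.62 and 2.87 in pollen cells, so the ranges met at 2.62, and the adjusted p was 0.955 by limma. In all, 4 of the 36 junction genes did not overlap at 2h25 min and 5 at 6h50 min. The share over all genes is not given, so nothing particular to these genes is read from it.

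Whether the pollen effect differed between neighbouring times was tested as well. No junction gene was called for 55 min against 10 min, 2h25 min against 55 min, 6h50 min against 2h25 min or 24 h against 6h50 min, with a background of 0%, 0%, 0.00408% and 0%. The smallest adjusted p of a junction gene in these 4 comparisons was 0.747, for 6h50 min against 2h25 min. Over all 10 pairs of times it was 0.746.

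The second question was how the junction genes moved with time. Most calls fell at 24 h, with claudins, occludin and nectins among the higher genes and cadherins, desmosome proteins and connexins among the lower ones. The step from 2h25 min to 24 h is given first, since 1 slide held arrays of both times. In mock cells 7 of 36 junction genes were higher at 24 h, against a background of 12.3% of all genes, and 13 were lower, against 14.9%. In pollen cells 5 were higher, against 11.2%, and 12 lower, against 11.8%. Called junction genes thus made up 55.6% of the tested ones in mock and 47.2% in pollen cells. The median change of the 36 genes was -0.12 in mock and -0.14 in pollen cells, beside -0.08 and -0.03 over all genes. The counts depended on the scaling, with 4 and 3 called when each array was scaled to the 75th percentile of its own probes and 3 and 1 after quantile normalization over all 30 arrays. Over the 29 arrays of the common design, chosen after seeing the data, the same scalings gave 21 and 17, and 21 and 16. For alternative runs, here and below, the share of all genes called is not given unless stated. Their counts thus have no background.

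**Figure D2:**
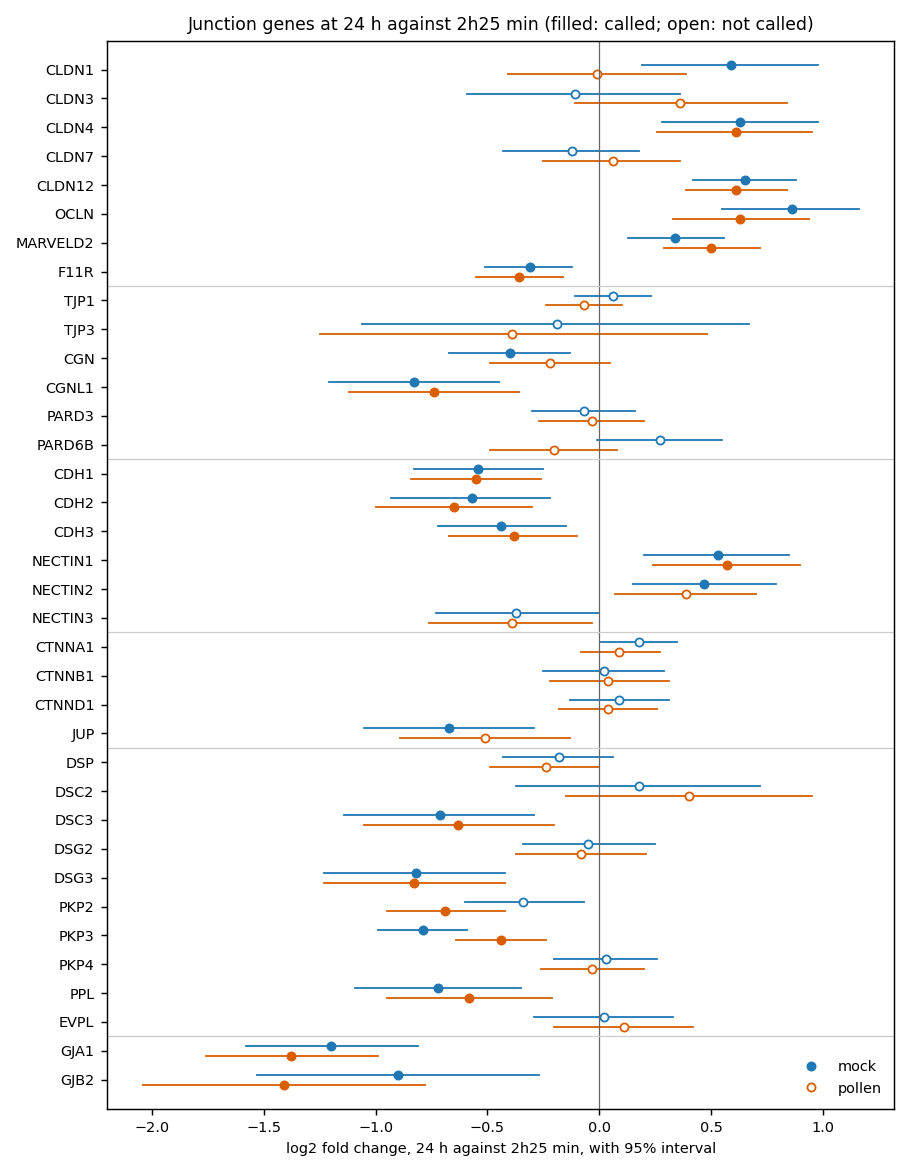
Log2 fold change of the 36 tested junction genes at 24 h against 2h25 min, on the horizontal axis, in mock and pollen cells (3 arrays against 3 each), with 95% intervals as bars and genes on the vertical axis ordered by role. Filled points are called genes: 7 higher and 13 lower in mock cells, 5 higher and 12 lower in pollen cells.

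Of the called genes 16 were shared by both exposures with the same sign, which was 80% of those called in mock cells and 94.1% of those called in pollen cells. The matching shares over all genes are not given, so this overlap is not read as particular to junction genes. Mock and pollen arrays were different samples, though they shared slides and, at these times, deviated together by replicate number. The 5 genes higher in both were CLDN4, CLDN12, OCLN, MARVELD2 and NECTIN1. The 11 lower in both were F11R, CGNL1, CDH1, CDH2, CDH3, DSC3, DSG3, PKP3, PPL, GJA1 and GJB2. No junction gene was called in limma's test of the difference between the exposures in this step, whose smallest adjusted p was 1.

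Among tight junction membrane proteins 5 of 8 genes were higher in mock and 4 in pollen cells, and F11R was the 1 that was lower in both. OCLN (hg19 chr5:68849515-68849574 for the probe) stood at -1.91, -2.03 and -2 in mock cells of 2h25 min and at -1.23, -1.18 and -0.96 at 24 h. In pollen cells it stood at -1.37, -2.11 and -1.81, and at -1.27, -0.95 and -1.16 at 24 h. All 24 h arrays lay above all 2h25 min arrays of their exposure, although 1 pollen array of 2h25 min came close. The level was 1.81-fold higher at 24 h in mock cells (log2 0.86 ± 0.15 SE, adjusted p = 0.000135) and 1.55-fold in pollen cells (0.63 ± 0.15 SE, adjusted p = 0.00301). The second OCLN probe gave 0.94 and 0.75, both called.

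CLDN4 (hg19 chr7:73246907-73246966), a claudin of tight epithelia, stood at -2.96, -2.93 and -2.78 in mock cells of 2h25 min and at -2.11, -2.19 and -2.47 at 24 h. Pollen cells had -2.87, -2.75 and -2.52, and at -2.12, -1.87 and -2.34 at 24 h. The groups did not overlap, and the changes were 0.63 and 0.61 (both ± 0.17 SE). A second CLDN4 probe, well above background on only 12 arrays, changed by -1.01 and 0.07 and was not called, so the 2 probes did not move alike. CLDN12 stood at -0.63, -0.82 and -0.59 in mock cells of 2h25 min and at -0.10, 0.07 and -0.07 at 24 h, a change of 0.65 ± 0.11 (SE), with 0.61 in pollen cells. Its second probe gave 0.63 and 0.57, not called. MARVELD2, which encodes tricellulin, the protein of the corners where 3 cells meet, changed by 0.34 in mock and 0.50 in pollen cells, and its second probe by 0.22, not called, and 0.36, called.

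CLDN1 was higher at 24 h than at 2h25 min in mock cells, by 0.59 ± 0.19 (SE), with an adjusted p of 0.0249, and had -0.01 in pollen cells, where the 2h25 min arrays were already at 0.44 to 0.90. Against 10 min it was higher at 24 h in both, by 0.78 in mock and 0.67 in pollen cells. F11R, which encodes the junctional adhesion molecule JAM-A, was lower by 0.31 on the log2 scale in mock cells, from 3.23 to 3.35 at 2h25 min down to 2.93 to 3.03 at 24 h. In pollen cells its change was -0.36. CLDN3 and CLDN7 were not called in this step, with changes between -0.12 and 0.36.

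Of 6 plaque and polarity genes 2 were lower in mock and 1 in pollen cells, and none was higher by its brightest probe. CGNL1, which encodes paracingulin, stood at -2.17, -2.35 and -1.77 in mock cells of 2h25 min and at -2.90, -2.91 and -2.97 at 24 h. Pollen cells had -2.39, -2.32 and -1.65 at 2h25 min and -2.83, -3.15 and -2.59 at 24 h. It was thus 1.78-fold lower in mock (adjusted p = 0.00159) and 1.67-fold lower in pollen cells (adjusted p = 0.00522). CGN, which encodes cingulin, was called in mock cells, at -0.40 ± 0.13 (SE), and had -0.22, which was not called, in pollen cells. TJP1 changed by 0.06, with a 95% interval from -0.11 to 0.23, in mock and by -0.07, from -0.24 to 0.10, in pollen cells, and PARD3 by -0.07 and -0.03. PARD6B had 0.27 in mock and -0.20 in pollen cells and was called in neither by its brightest probe. Its other probe, well above background on all 30 arrays, was called higher in both, at 0.88 and 0.77, so the 2 probes gave different calls.

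All 3 cadherins were lower at 24 h and the nectins were split. CDH1 (hg19 chr16:68869214-68869273) stood at 1.73, 2.07 and 2.04 in mock cells of 2h25 min and at 1.34, 1.44 and 1.44 at 24 h. Pollen cells had 2.06, 2.19 and 2.23, and at 1.5, 1.62 and 1.72 at 24 h. Every 24 h array lay below every 2h25 min array, and CDH1 was 1.45-fold lower in mock (log2 -0.54 ± 0.14 SE, adjusted p = 0.00555) and 1.46-fold lower in pollen cells (-0.55 ± 0.14 SE, adjusted p = 0.00622). CDH2 fell from 0.48 to 0.70 down to -0.03 to 0.11 in mock cells, a change of -0.57, and from 0.54 to 0.95 down to -0.07 to 0.22 in pollen cells, a change of -0.65. Its second probe gave -0.38 and -0.43, not called. CDH3, the gene of P-cadherin, changed by -0.44 and -0.38. By their brightest probes, E-cadherin and N-cadherin transcripts thus both fell in this step. Against 10 min CDH2 was not called in either exposure. An exchange of these cadherins is often described in an epithelial to mesenchymal transition, which was not tested.

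NECTIN1 stood at -3.46, -3.23 and -2.97 in mock cells of 2h25 min and at -2.38, -2.72 and -2.97 at 24 h, where the lowest value met the highest of the earlier time to 2 decimals. The change was 0.53 ± 0.16 (SE), and it was 0.57 in pollen cells. NECTIN2 changed by 0.47 in mock cells and by 0.39, which was not called, in pollen cells, and its second probe gave 0.15 and -0.05, not called. NECTIN3 had -0.37 and -0.39 and was not called in any of the 22 comparisons. Catenins, which link cadherins to actin, had changes of 0.02 to 0.18 for CTNNA1, CTNNB1 and CTNND1, and none of the 3 was called in this step. JUP, which encodes plakoglobin, a protein of desmosomes and adherens junctions, was lower in mock cells by 0.67 on the log2 scale with an overlap of the groups, and had -0.51, which was not called, in pollen cells.

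Desmosome genes were either lower or not called, 4 of 10 lower in mock and 5 of 10 in pollen cells. DSG3, the desmoglein of basal cells, stood at -1.11, -0.82 and -1.17 in mock cells of 2h25 min and at -1.94, -1.70 and -1.93 at 24 h. In pollen cells it stood at -0.58, -0.75 and -0.80, and at -1.59, -1.28 and -1.75 at 24 h. It was 1.77-fold lower in both, with adjusted p-values of 0.00281 and 0.00352. DSC3, the desmocollin that accompanies it in basal layers, changed by -0.71 and -0.63, and its second probe by -1.12 and -1.18, not called. DSG2 and DSC2, the forms of simple epithelia, were not called in any comparison, with -0.05 and 0.18 in mock cells in this step.

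PKP3 had the smallest adjusted p of the junction genes in mock cells, 3.39e-06. It stood at 3.17, 3.35 and 3.32 at 2h25 min and at 2.62, 2.5 and 2.36 at 24 h, and was 1.73-fold lower. In pollen cells it was 1.35-fold lower. PPL, the gene of periplakin, which links desmosomes to keratin, changed by -0.72 and -0.58. PKP2 had -0.34, not called, in mock and -0.69, called, in pollen cells. DSP had -0.18 and -0.24 and was not called, nor were PKP4 and the envoplakin gene EVPL.

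The connexins had the largest changes of the 36 genes in this step in both exposures. GJA1 (hg19 chr6:121770327-121770386) stood at 0.05, 0.49 and -0.01 in mock cells of 2h25 min and at -1.15, -0.85 and -1.05 at 24 h. Pollen cells had 0.49, 0.40 and 0.17, and at -1.25, -0.61 and -1.21 at 24 h. It was 2.29-fold lower in mock (log2 -1.20 ± 0.19 SE) and 2.59-fold lower in pollen cells (-1.38 ± 0.19 SE). GJB2, which encodes connexin 26, stood at -3.83, -2.91 and -3.17 in mock cells of 2h25 min and at -4.15, -4.00 and -4.47 at 24 h. In pollen cells it went from -3.10, -2.40 and -2.85 to -4.13, -3.97 and -4.46. It was 1.87-fold lower in mock and 2.65-fold lower in pollen cells.

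**Figure D3:**
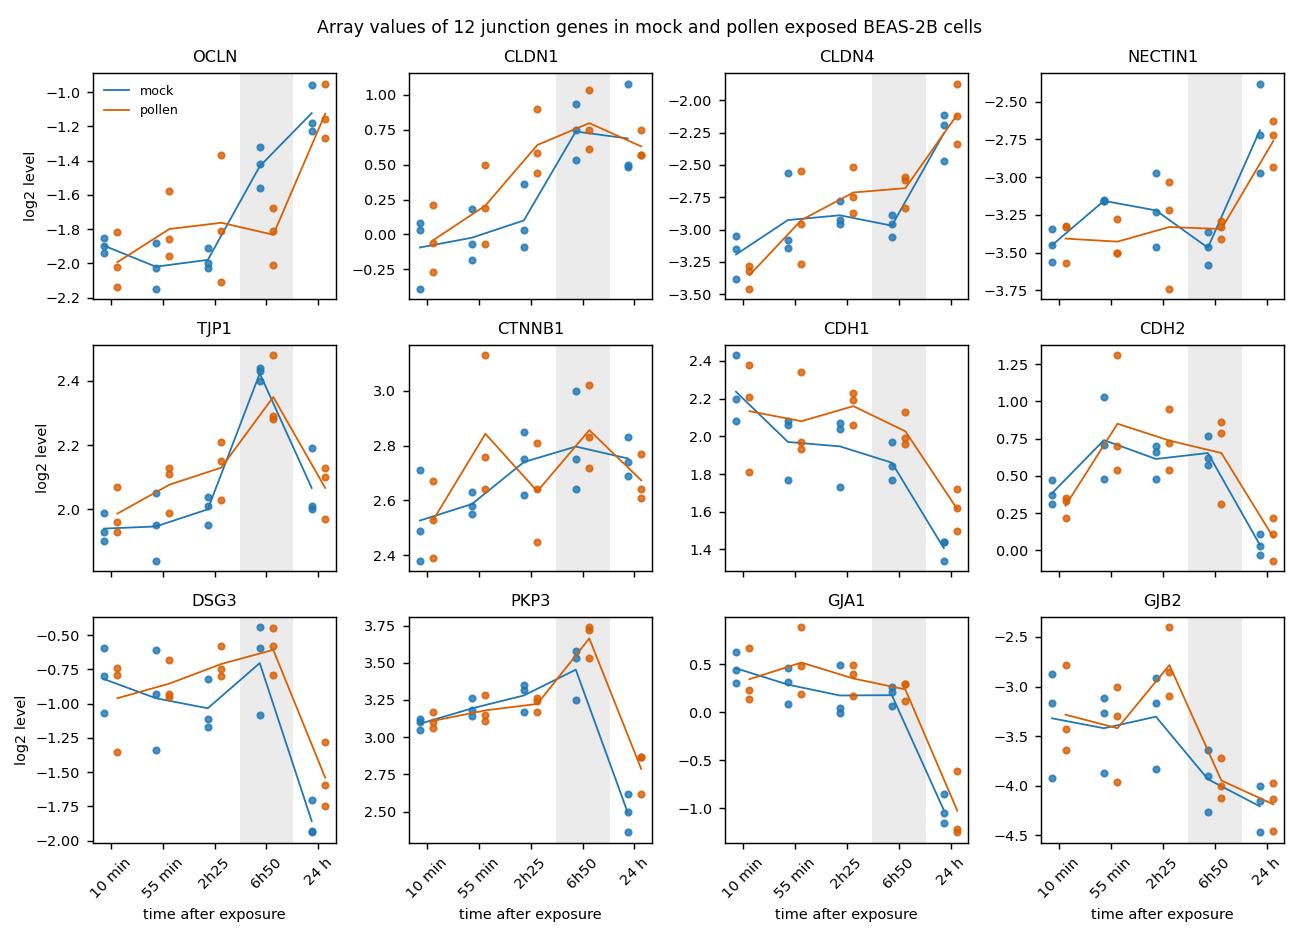
Log2 levels of 12 junction genes, on the vertical axis, at the 5 times on the horizontal axis, which is not to scale in time. Points are single arrays, lines join the means of 3 arrays, and the grey band marks 6h50 min, whose arrays lay on a slide of their own. OCLN, CLDN4 and NECTIN1 lie higher and CDH1, CDH2, DSG3, PKP3, GJA1 and GJB2 lower at 24 h than at 2h25 min in both exposures.

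The same step was read on the single slide that held the 24 h arrays and 1 array of 2h25 min of each exposure. The 3 arrays of 24 h are those of the fit over all arrays and the array of 2h25 min is 1 of its 3, so a like sign is largely built in. All 20 and 17 called junction genes kept their sign there, as did 6669 of the 6671 genes of any kind called in mock cells and 5624 of the 5625 in pollen cells, and nothing is read from it. OCLN changed by 0.88 and 0.68 on the slide, GJA1 by -1.01 and -1.20, CDH1 by -0.63 and -0.62, and DSG3 by -0.69 and -0.74. None was called on this slide alone, where 3 arrays stood against 1 and the lone array was assumed to vary like the others. There, 2.26% of all genes were called in mock and 0.0489% in pollen cells. With slide as a fixed term in the fit over all arrays, 14 genes were called in mock and 13 in pollen cells. Without the second mock array of 2h25 min 11 genes were called in mock cells, without the third of 24 h 13, and without the filter on dim probes 13. No share of all genes is given for the fit with the slide term or for these runs.

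**Figure D4:**
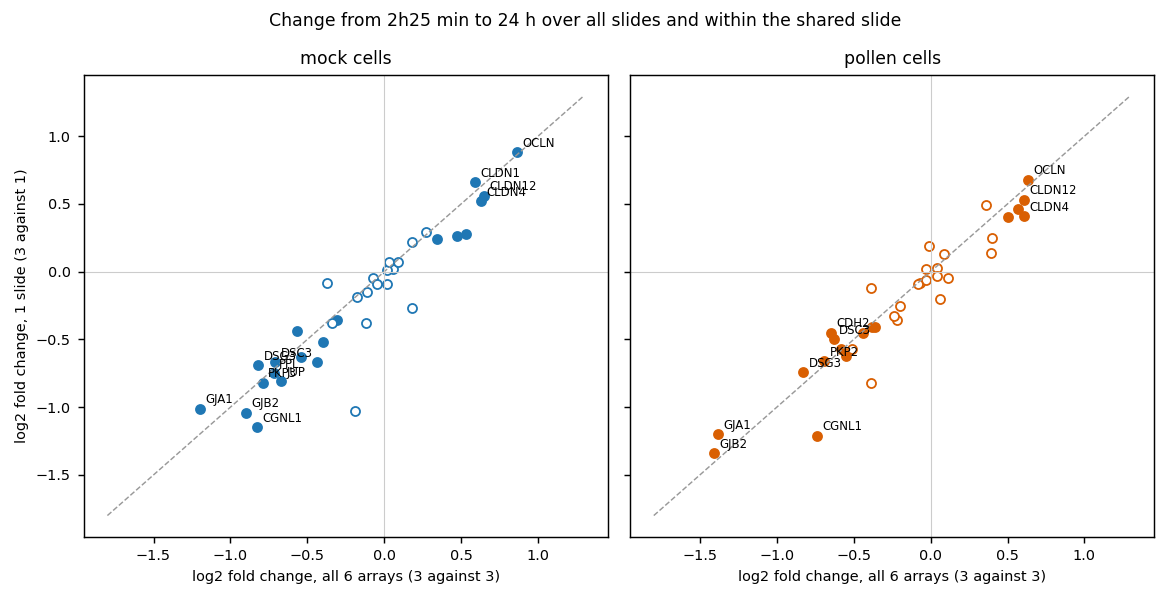
Log2 fold change from 2h25 min to 24 h over all 6 arrays of an exposure, on the horizontal axis, against that on the slide shared by both times, on the vertical axis, for 36 junction genes in mock (left) and pollen cells (right). Filled points are the 20 and 17 genes called over all arrays, the dashed line marks equal values, and every filled point has the same sign on both axes, which share 4 of the 6 arrays.

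Against 10 min, 7 genes were higher at 24 h in mock cells, beside 17.2% of all genes, and 13 were lower, beside 20%. In pollen cells 8 were higher, beside 16%, and 10 were lower, beside 19.7%. The median change of the 36 genes was -0.10 in mock and -0.14 in pollen cells, beside -0.08 over all genes in both. Of these genes 16 were called with the same sign in both exposures, 7 higher and 9 lower, again without a share over all genes. The 7 were CLDN1, CLDN4, CLDN12, OCLN, MARVELD2, NECTIN1 and NECTIN2. CLDN4 had 0.94 in mock and 1.25 in pollen cells, GJA1 -1.48 and -1.37, DSG3 -1.04 and -0.58, and CDH1 -0.83 and -0.52. CTNNA1, the gene of alpha-catenin, was called in pollen cells at 0.23 and had 0.20 in mock cells, while its second probe was called in mock cells at 0.58 and had 0.29, not called, in pollen cells. EVPL was called in pollen cells at -0.45 and had -0.27. CDH2 was not called against 10 min, with -0.34 and -0.22. These 2 times lay on different slides, linked through other arrays. With slide as a fixed term 5 genes were called in mock and 2 in pollen cells, and without the third pollen array of 10 min 10 were called in pollen cells. The own 75th percentile gave 7 and 4 and quantile normalization 3 and 2 over all 30 arrays, and over the 29 of the common design they gave 19 and 15, and 19 and 19.

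Across the steps, 13 genes passed in all 4 comparisons of 24 h with an earlier time. The higher ones were CLDN4, CLDN12, OCLN, MARVELD2 and NECTIN1, and the lower ones CGNL1, CDH1, CDH3, DSG3, PKP3, PPL, GJA1 and GJB2. These were 5 of 36 higher, beside 7.68% of all genes, and 8 of 36 lower, beside 8.18%. Both comparisons of an exposure used the same 24 h arrays. The second probe of MARVELD2 had 0.06 and 0.08 at 24 h against 10 min and was not called, and that of CLDN12 had 1.61, called, in mock and 0.10, not called, in pollen cells.

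Few calls fell in the first hours. No junction gene was called in mock cells at 55 min or 2h25 min against 10 min, with a background of 0.204% and 0.192%. In pollen cells 0 were called at 55 min, with a background of 0.93%, and 1 at 2h25 min, with a background of 2.26%. The 1 gene was CLDN4, which stood at -3.46, -3.28 and -3.32 in pollen cells of 10 min and at -2.87, -2.75 and -2.52 at 2h25 min. The change was 0.64 ± 0.17 (SE) with an adjusted p of 0.048 by limma, and 0.30 in mock cells. Its probe lay in a dim area of 1 pollen array of 10 min. Without the dim areas the change was 0.58 with an adjusted p of 0.109. No pollen array of 55 min or 2h25 min shared a slide with the arrays of 10 min. With slide as a fixed or random block the call was lost as well. Between 55 min and 2h25 min 0 genes were called in mock cells, with a background of 0.0163%, and 0 in pollen cells, with a background of 0.232%.

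At 6h50 min against 10 min, 6 junction genes were higher and 5 lower in mock cells, beside 13.7% and 25.7% of all genes. In pollen cells 9 were higher and 5 lower, beside 15.4% and 29.3%. Under other choices the 11 and 14 calls were 4 and 4 (own 75th percentile), 1 and 1 (quantile normalization over 30 arrays), 19 and 18 or 12 and 10 (the same scalings over 29 arrays), and 4 and 7 (slide as a random block). Without the third mock array of 10 min 7 were called in mock cells. TJP1, which was called at no other time, stood at 1.93, 1.90 and 1.99 in mock cells of 10 min and at 2.44, 2.43 and 2.40 at 6h50 min, a change of 0.48, with 0.36 in pollen cells. CLDN3 had 1.04 and 0.91, CLDN1 0.83 and 0.84, JUP -0.73 and -0.72, CTNND1 -0.47 and -0.61, PARD3 -0.33 and -0.28, PKP3 0.36 and 0.55, and EVPL -0.50 and -0.68, all called in both exposures. CTNNB1, the gene of beta-catenin, was called in pollen cells at 0.33 and had 0.27 in mock cells. TJP3 was not well above background on any array of 6h50 min. In pollen cells its mean at 10 min lay 1.75-fold above the lowest signal well above background on each dim array, a mark that is no strict ceiling for dim probes. The adjusted p of the measured change was 0.00178 by limma. In mock cells the mean at 10 min, -6.67, lay below that mark, at -6.58, and TJP3 was not called.

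Probes of 1 gene disagreed at 6h50 min. Of the 17 genes with several tested probes, 8 in mock and 11 in pollen cells had probes on both sides of 0 against 10 min. F11R had 0.23 and -1.47 by its 2 probes in mock and 0.35 and -1.25 in pollen cells. CLDN4 had 0.67 and -1.81 and DSP 0.36 and -0.59 in pollen cells. These 3 genes had called probes of opposite sign among the 4 junction genes with several called probes in pollen cells. The brighter DSP probe lay in a dim area of 1 array, and with the dim areas left out its change was 0.22 with an adjusted p of 0.135 by limma, so that call was lost. The other PARD3 probes had 0.21 and -0.02, and 0.07 and -0.21, and the other CTNNB1 probe 0.00 and -0.05, none of them called. The second MARVELD2 probe was called lower, at -0.33 and -0.27, and the second CTNNA1 probe higher, at 0.44 and 0.39. Over all genes with several called probes the share with opposite signs was 29.9% in mock and 26.9% in pollen cells at 6h50 min against 10 min. At 24 h it was 10.9% and 10.8% against 10 min, and 7.9% and 5.37% against 2h25 min, with 0 junction genes in any of these. Time, slide and scan at 6h50 min cannot be told apart, so the values of this step describe these arrays only.

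**Figure D5:**
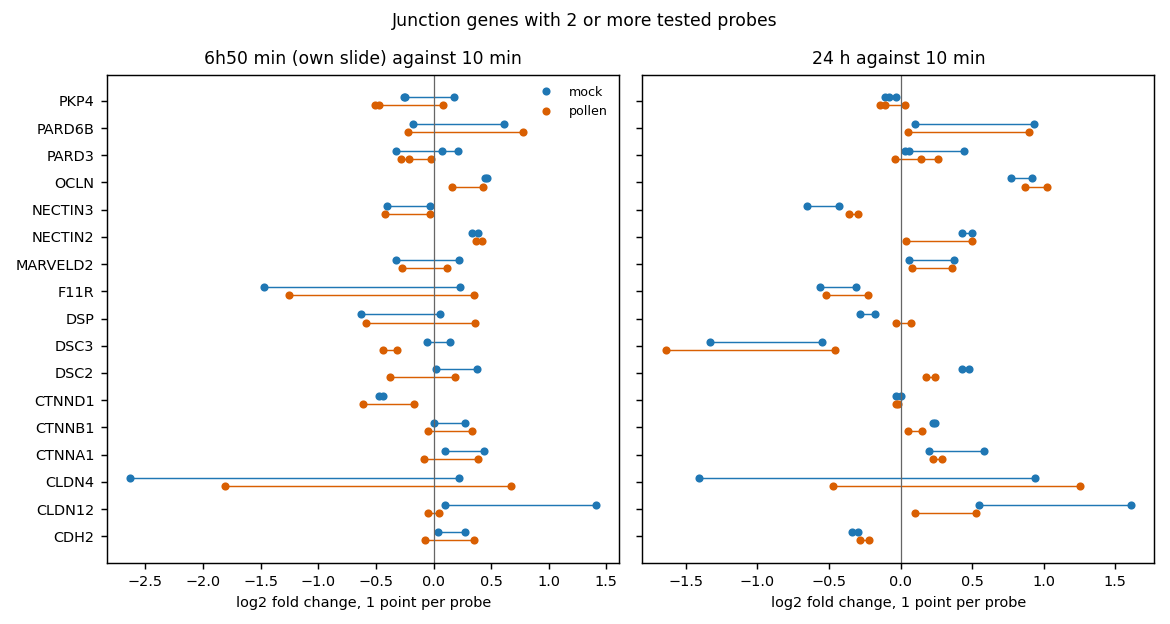
Log2 fold change of each tested probe, on the horizontal axis, for the junction genes with 2 or more tested probes, on the vertical axis, at 6h50 min (left) and 24 h (right) against 10 min in mock and pollen cells. Lines join probes of 1 gene. At 6h50 min 8 of the 17 genes span 0 in mock and 11 in pollen cells, among them F11R, CLDN4 and DSP in both, and at 24 h 1 and 4 do, CLDN4 in both, where its dimmer probe had -1.41 and -0.47.

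Of the 36 genes 6 were called in none of the 22 comparisons by their brightest probe. They were CLDN7, PARD6B, NECTIN3, DSC2, DSG2 and PKP4. The other PARD6B probe was called higher in 6 comparisons, at 0.61 in mock and 0.78 in pollen cells at 6h50 min against 10 min, at 0.93 and 0.90 at 24 h against 10 min, and in the step from 2h25 min to 24 h. Both other PKP4 probes were called in pollen cells at 6h50 min against 10 min, at -0.47 and -0.51. No tested probe of CLDN7, NECTIN3, DSC2 or DSG2 was called. CLDN7 stood between 0.68 and 1.48 on all 30 arrays.

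A wider list of 62 other junction genes, to be read beside the backgrounds given above, had 47 tested. In the step from 2h25 min to 24 h, 3 were higher and 12 lower in mock cells and 3 higher and 10 lower in pollen cells, with medians of -0.23 and -0.14. SCRIB, a polarity gene, was higher by 0.87 in mock and 1.02 in pollen cells, and NECTIN4 by 1.69 and 1.86. Against 10 min, 5 were higher and 15 lower in mock and 5 higher and 6 lower in pollen cells at 24 h. There SCRIB had 1.22 in mock and 1.36 in pollen cells, NECTIN4 had 1.81 and 1.70, and MAGI3, a junction scaffold, had -0.87 and -0.86. At 6h50 min against 10 min, 7 were higher and 10 lower in mock and 10 higher and 10 lower in pollen cells, of which SCRIB, with 0.78 and 0.87, and the polarity kinase gene PRKCZ, with 0.68 and 0.79, had the smallest adjusted p-values in both exposures. PANX1, which encodes the channel protein pannexin 1, was the 1 gene of the list called in pollen cells at 55 min, at 0.59, and at 2h25 min, at 0.81, both against 10 min. None of the 47 was called for pollen against mock on average.

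Markers of epithelial identity moved in the same step as the junction genes. Of 18 tested markers 1 was higher and 8 lower at 24 h against 2h25 min in mock cells, beside 12.3% and 14.9% of all genes. In pollen cells 1 was higher and 9 lower, beside 11.2% and 11.8%. The higher one in both was EPCAM, an epithelial adhesion molecule, by 0.81 and 0.82. KRT5, the keratin of basal cells, had -2.96 and -2.51, KRT15 -1.65 and -1.13, and TP63, a transcription factor of basal cells, -1.64 and -1.52. TP63 was well above background on 21 arrays. Other keratins were called lower as well, among them KRT19 with -1.66 and -1.14, KRT7 with -0.98 and -0.70, and KRT8 with -0.56 and -0.60. The summed signal of the 18 markers, in multiples of the 75th percentile of the array, lay at 223 to 341 in mock cells of 2h25 min and at 145 to 191 at 24 h. In pollen cells it lay at 235 to 321 and at 160 to 193. Brighter probes weigh more in such a sum, so it does not stand for each marker of the list. Of 13 tested mesenchymal markers 1 was higher and 6 lower in each exposure, with ACTA2 higher by 1.75 and 1.6 and SNAI2, a repressor of CDH1, at -0.97 and -1.67. Their summed signal lay at 102 to 128 and 83.6 to 95.2 in mock cells, and at 118 to 134 and 87.2 to 102 in pollen cells. Of 7 tested markers of other cell types 0 were higher and 1 was lower in mock cells, and 0 were called in pollen cells. The part of these markers in the change of the junction genes was not tested. In bulk RNA, fewer cells of a type and less RNA per cell cannot be told apart.

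The sequence before the start site was read from RefSeq (GRCh38.p14) for the junction genes that its table held, called or not, to show the letters that lie there. These were 38 start-site windows of 25 of the 37 genes, with 250 bases before each start searched on both strands. The letters TGANTCA, a motif of the AP-1 factors, were in 3 of the 38 windows, or 7.89%, beside 6.57% of all 35116 windows. They were found in CLDN4, which was higher at 24 h, and in GJA1 and CDH2, which were lower. CAGGTG, an E-box that repressors such as SNAI2 can bind, was in 9 windows, or 23.7%, beside 17.5%. These were both windows of OCLN and windows of CLDN7, DSC2, DSG2, DSP, JUP, TJP1 and TJP3. By their brightest probes, OCLN alone of these genes was called higher at 24 h. JUP was called lower there in mock cells, and the others were not called at 24 h. TATAAA was in 2.63% of the windows beside 10.7%, and AACCNGTT, a motif of the grainyhead-like factors, in 2.63% beside 1.49%. A match is a description of the letters and not of binding. The windows of CLDN4 and OCLN, 2 of the genes that were higher, and of GJA1, the most changed of those with a match, are shown 5′ to 3′ with the motif letters in capitals, TGANTCA in CLDN4 and GJA1 and CAGGTG in OCLN.
CLDN4 (chr7:73830746-73830995, plus strand): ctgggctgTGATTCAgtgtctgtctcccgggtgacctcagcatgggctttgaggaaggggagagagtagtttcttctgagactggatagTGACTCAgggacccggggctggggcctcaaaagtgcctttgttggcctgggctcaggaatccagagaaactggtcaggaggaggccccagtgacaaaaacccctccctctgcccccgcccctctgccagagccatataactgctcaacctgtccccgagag
OCLN (chr5:69492297-69492546, plus strand): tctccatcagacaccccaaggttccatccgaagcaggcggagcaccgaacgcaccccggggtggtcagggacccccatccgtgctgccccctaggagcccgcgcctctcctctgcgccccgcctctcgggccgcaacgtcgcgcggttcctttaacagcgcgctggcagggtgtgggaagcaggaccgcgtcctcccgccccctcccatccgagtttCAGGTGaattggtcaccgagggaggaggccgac
GJA1 (chr6:121435396-121435645, plus strand): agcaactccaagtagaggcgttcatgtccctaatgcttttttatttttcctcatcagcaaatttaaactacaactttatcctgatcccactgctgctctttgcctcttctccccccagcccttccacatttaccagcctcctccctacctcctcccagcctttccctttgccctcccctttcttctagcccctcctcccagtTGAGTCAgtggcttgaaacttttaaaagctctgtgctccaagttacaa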

How the data were processed

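The deposited files were the scanner output of 30 one-colour arrays (SurePrint G3), which the authors made with Agilent Feature Extraction 11.0.1.1, and a value table of log2 signals. The deposited intensity used here was the processed signal, from which the scanner software had already subtracted background. The log2 values deposited in the table had equal medians, near 5.69 in the columns of the common design, and served as an alternative. Probe positions are hg19 per the file headers. Control spots and outlier spots were left out, spots of 1 probe were averaged, and log2 intensity was scaled to the 75th percentile of each array over the 33873 probes that both designs shared. Groups came from the labels. The test was limma 3.58.1 (R 4.3.3) in 1 fit over the 10 groups with 20 residual degrees of freedom, with Benjamini-Hochberg adjustment in each comparison. The call needed an adjusted p under 0.05 and 1.1-fold, as in the study's methods. The script was tested on simulated data with known changes. The steps from 2h25 min and from 55 min were added after the slides had been read from the headers.

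The junction genes, the lists and the rules were chosen with earlier results of these data known. Genes named with values were all called ones, the one with the smallest p of each role for pollen against mock, and CDH1, CDH2, OCLN, TJP1, CLDN1, DSP and GJA1, and from the list of other junction genes the 2 with the smallest p in each comparison with calls. The number of arrays limits the precision, 3 per group. No spot was saturated, and 44.7% to 59.3% of probes were well above background per array. Same-numbered mock and pollen arrays deviated together at 10 min (r = 0.30 to 0.31), 2h25 min (0.38 to 0.50) and 24 h (0.19 to 0.42), not at 55 min (-0.12 to 0.35) or 6h50 min (0.05 to 0.09), over tested probes. At 24 h the columns of the value table held the values of other arrays of their own group, so replicate numbers there are uncertain and group means are not.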

Additional observations from a re-analysis of the deposited data

How the results depend on the processing

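No junction gene was called for pollen against mock at any time, on average or between neighbouring times under any alternative run. No called gene changed direction under any of them. With a replicate block, paired arrays gave 0 calls for pollen against mock at every time. With replicate number as a block, the steps from 10 min to 24 h gave 22 calls in mock and 18 in pollen cells, and those from 2h25 min gave 21 and 18, so the pairing moved no count by over 1.5 times. For the step from 2h25 min to 24 h, the calls over 3 arrays a group fell to 0 in both exposures within the shared slide, which had 3 arrays against 1. Without the filter on dim probes 13 were called in mock cells. 

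Other scalings over all 30 arrays lowered the counts of the late steps, in the order mock and pollen from 10 min to 24 h, mock and pollen from 2h25 min to 24 h, and mock and pollen from 10 min to 6h50 min. The 75th percentile over each array's own probes gave 7, 4, 4, 3, 4 and 4, quantile normalization 3, 2, 3, 1, 1 and 1, and normexp with quantile normalization 6, 5, 4, 4, 1 and 2. These scalings take the array of the other design by a different set of probes. Over the 29 arrays of the common design, chosen after seeing the data, quantile normalization gave 19, 19, 21, 16, 12 and 10 and the own 75th percentile 19, 15, 21, 17, 19 and 18. Quantile normalization moved the median of all genes at 6h50 min against 10 min in mock cells from -0.18 to 0.00. With slide as a fixed block, 5 and 2 were called from 10 min to 24 h, and with slide as a random block 13 and 7, and 4 and 7 from 10 min to 6h50 min. A fixed slide term could not be fitted for 6h50 min against 10 min. Over all tested probes of the genes, 18 genes were called in mock cells at 6h50 min. The share of all genes called under each of these alternative runs is not given.

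The 1 call in pollen cells from 10 min to 2h25 min became 0 under these scalings, without the filter, with dim areas left out and with slide as a fixed or random block, 2 or 3 over the 29 arrays and 3 in the value table of the series. Array weights gave 1 call in mock cells at 55 min against 10 min and 1 in pollen cells at 2h25 min against 55 min, as did quantile normalization over the 29 arrays for the first and the own percentile for the second. Leaving out 1 array in turn gave 7 to 11 and 11 to 13 calls from 10 min to 6h50 min, 16 to 18 and 10 to 16 from 10 min to 24 h, 11 to 18 and 14 to 16 from 2h25 min to 24 h, 0 to 1 in pollen cells from 10 min to 55 min, 0 to 1 from 10 min to 2h25 min, and 0 otherwise. The lowest counts were without the third mock array of 10 min for 7, the third pollen array of 10 min for 10 and the second mock array of 2h25 min for 11.

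For pollen against mock on average, differences near 0 changed sign. Under the own percentile, quantile, and normexp with quantile, TJP1 had -0.04, -0.04 and -0.05, CDH2 -0.04, -0.06 and -0.06, DSP -0.08, -0.06 and -0.03, and GJA1 -0.02, -0.04 and -0.08, and PARD6B -0.05 and -0.02 under the last 2. DSP had -0.02 with slide as a fixed block, and CDH2 and GJA1 had -0.02 in the value table. Over the 29 arrays CDH2 had -0.01 under both scalings and DSP -0.01 and 0.00. Leaving out 1 array at a time gave -0.03 to 0.03 for DSP, 0.00 to 0.08 for CDH2 and -0.05 to 0.02 for OCLN. The cause of these changes was not tested.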
